A study of Homo sapiens with 7 samples.

Results

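OCT2, encoded by POU2F2, was mapped by chromatin immunoprecipitation and sequencing (ChIP-seq) in OCI-Ly7, an established line of diffuse large B-cell lymphoma. The series holds 7 libraries: 6 ChIP libraries, for OCT2, OCA-B, OCT1, MED1, CREBBP and EP300, and 1 input of sonicated chromatin that served as the control for each. All came from the same line, the labels name no treatment, and each antibody had 1 library, so no value has a replicate check and no test between antibodies was made. The members described here were all peaks in the deposited OCT2 table on chromosomes 1 to 22 and X, whatever their strength, which gave 73829 of the 323423 peaks in all 6 tables. The OCT2 library held 22142497 tags after duplicate removal and the input 37517450. OCI-Ly7 is a single line, so donor-to-donor variation was not sampled.

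OCT2 is a POU-domain transcription factor of the B lineage that binds the octamer, ATGCAAAT, and its reverse complement ATTTGCAT. OCA-B (POU2AF1) is a lymphoid coactivator that docks on octamer-bound OCT2 or on the widely expressed relative OCT1 (POU2F1). MED1 belongs to the Mediator complex, and CREBBP and EP300 are acetyltransferases found at active enhancers and promoters. Octamers are classical elements of immunoglobulin, histone H2B and small nuclear RNA gene promoters.

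The octamer was read in RefSeq promoter windows, which run from 250 bases before to 50 bases after an annotated start (GRCh38.p14, 34961 windows). These 4 windows are shown because each holds an octamer with a strong OCT2 summit inside the window. The first 3 are among the 4 distinct peaks of highest pileup at such windows, pileup being the number of sequenced fragments stacked over the summit. The fourth belongs to a gene previously tied to octamer factors and holds 2 octamers. Capitals mark the octamer on either strand, and sequences read 5′ to 3′ along the gene.

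H2AC6 promoter (chr6:26123922-26124221, plus strand): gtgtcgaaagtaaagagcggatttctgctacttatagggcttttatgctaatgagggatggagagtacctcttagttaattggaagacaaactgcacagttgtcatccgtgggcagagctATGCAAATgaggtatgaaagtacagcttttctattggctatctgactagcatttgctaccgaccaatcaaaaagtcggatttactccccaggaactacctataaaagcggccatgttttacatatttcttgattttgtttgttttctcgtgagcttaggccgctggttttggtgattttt
POU2F1 promoter (chr1:167328820-167329119, plus strand): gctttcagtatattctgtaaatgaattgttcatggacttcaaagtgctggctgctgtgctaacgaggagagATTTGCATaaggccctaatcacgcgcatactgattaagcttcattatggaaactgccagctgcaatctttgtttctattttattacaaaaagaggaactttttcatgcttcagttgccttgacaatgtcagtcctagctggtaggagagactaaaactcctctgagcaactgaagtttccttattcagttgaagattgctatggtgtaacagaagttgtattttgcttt
SIRT4 promoter (chr12:120291939-120292238, plus strand): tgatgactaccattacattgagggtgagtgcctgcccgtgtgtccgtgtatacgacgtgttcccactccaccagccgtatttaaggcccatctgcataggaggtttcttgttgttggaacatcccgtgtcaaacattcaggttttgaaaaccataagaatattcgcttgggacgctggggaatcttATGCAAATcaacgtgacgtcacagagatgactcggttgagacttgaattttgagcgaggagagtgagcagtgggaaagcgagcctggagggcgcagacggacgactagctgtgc
PIM2 promoter (chrX:48918975-48919274, minus strand): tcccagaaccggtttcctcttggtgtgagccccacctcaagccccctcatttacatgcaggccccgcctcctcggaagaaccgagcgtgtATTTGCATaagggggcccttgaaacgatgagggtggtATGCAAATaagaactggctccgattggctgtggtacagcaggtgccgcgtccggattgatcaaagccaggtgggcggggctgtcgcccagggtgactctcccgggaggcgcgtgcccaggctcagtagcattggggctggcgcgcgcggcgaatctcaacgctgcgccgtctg

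H2AC6 encodes histone H2A and shares its peak with the divergent H2BC4 (pileup 277, fold 40.3 over the control), whose summit lay 64.5 bp from the octamer centre. POU2F1 is the OCT1 gene itself, and its internal start had an OCT2 peak of 1747 bp with pileup 274 and fold 45.5, summit 22.5 bp from the octamer. SIRT4, a mitochondrial sirtuin gene, had pileup 274 and fold 22.5 with the summit 30.5 bp away, and the same peak of 1717 bp reached the small nuclear RNA gene RNU4-2. PIM2, a survival kinase gene, had a 457 bp peak with pileup 240 and fold 53.1, and its summit lay 11.5 bp from the nearer octamer.

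The replication-dependent H2B genes are shown beside each other because 14 of the 18 hold an octamer in a promoter window. Each line gives 28 bases, the octamer in capitals with 10 bases on either side, turned where needed so that it reads ATTTGCAT, with the position of the octamer and the strand printed (GRCh38.p14, RefSeq).

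H2BC1 (chr6:25726673-25726680, plus strand): gaatcgcctcATTTGCATtcacgccact
H2BC10 (chr6:26272886-26272893, plus strand): agccagcctcATTTGCATatacacgagg
H2BC11 (chr6:27132835-27132842, minus strand): tcttcaccttATTTGCATaagcgattct
H2BC12 (chr6:27146897-27146904, minus strand): tcttcaccttATTTGCATgagaggtcct
H2BC14 (chr6:27814974-27814981, plus strand): tctactcctaATTTGCATaataacattt
H2BC17 (chr6:27893276-27893283, minus strand): cagaaagctcATTTGCATtaagaggaag
H2BC18 (chr1:149812412-149812419, minus strand): gcgagtcttcATTTGCATacgggctcta
H2BC21 (chr1:149886721-149886728, minus strand): cggagccctaATTTGCATaaggtggtta
H2BC3 (chr6:26043826-26043833, minus strand): taaattccatATTTGCATaaaccccacc
H2BC4 (chr6:26124042-26124049, minus strand): ttcatacctcATTTGCATagctctgccc
H2BC6 (chr6:26183653-26183660, plus strand): aagctccttcATTTGCATgcagacttca
H2BC7 (chr6:26199405-26199412, plus strand): gaatcacctaATTTGCATaccacagggc
H2BC8 (chr6:26216729-26216736, minus strand): tgaattctttATTTGCATgaaaggccta
H2BC9 (chr6:26251565-26251572, plus strand): ttaagcacctATTTGCATaaaagaccta

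Of these 14 genes, 12 had an OCT2 peak over the window, and H2BC1 and H2BC6 did not. In 8 of the 14 the octamer began 45 to 49 bases before the annotated start. H2BC21 had the highest fold (52.0, pileup 266), and H2BC14 (fold 40.4, pileup 254) and H2BC4 (fold 40.3, pileup 277) came next. H2BC9 was low, at pileup 17 and fold 6.50 with its summit 17.5 bp from the octamer, and the other 11 peaks had pileups of 225 to 277. The lines of H2BC1 and H2BC6 hold the full octamer too.

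Over all promoter windows, 213 of 6036 windows with an OCT2 peak held the octamer (3.53%, exact 95% interval 3.08 to 4.03), against 405 of 28925 without one (1.40%, 1.27 to 1.54). The background over all windows was 1.77%, and 17.3% of windows overlapped an OCT2 peak. Because neighbouring starts can share a peak, the count was repeated over the 4747 distinct peaks at promoters. Octamer windows then made up 41 of 136 peaks with pileup of at least 200 (30.1%, 22.6 to 38.6), 41 of 392 with pileup of 100 to below 200 (10.5%, 7.61 to 13.9) and 60 of 2127 with pileup 30 to 99 (2.82%, 2.16 to 3.62). The share was 1.67% (1.11 to 2.41) at pileup 15 to 29 and 3.58% (2.02 to 5.84) below 15, so the order did not hold at the weak end. Without histone genes of the H1, H2AC, H2BC, H3C and H4C families, an exclusion chosen after the values were seen, the share at pileup of at least 200 was 27 of 118 (22.9%, 15.7 to 31.5). The histone gene H3-3B, outside these families, was kept, with an octamer and pileup 201. Peaks of higher pileup were also wider, with a median of 1138.5 bp at pileup of at least 200, against 192 bp below 15, although the promoter window searched was of fixed length. These intervals cover counting error only.

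Distance to the octamer was measured only for summits inside a window that held one, so the window length bounded it. No background distance for such windows was computed. Among 158 distinct summits inside windows with an octamer, the median distance to the octamer centre was 18 bp and 60.8% lay within 25 bp. For the 70 with pileup of at least 100 the median was 15.5 bp and 70% lay within 25 bp, and for the 35 with pileup under 30 it was 25.5 bp and 48.6%. Windows with both OCT2 and OCT1 peaks held the octamer in 158 of 4288 cases (3.68%). Those with OCT2 and no OCT1 peak did in 55 of 1748 (3.15%). Windows with OCT1 and no OCT2 peak did in 25 of 5041 (0.496%) and windows with neither in 380 of 23884 (1.59%). With OCT2 and OCA-B peaks the share was 181 of 5497 (3.29%, interval 2.84 to 3.80). With OCT2 and no OCA-B peak it was higher, 32 of 539 (5.94%, 4.10 to 8.28). Whatever their OCT2 state, windows with a MED1 or CREBBP peak held the octamer in 2.90% each. The share was 2.38% with an OCA-B peak and 2.32% with an EP300 peak. These shares all lay above the 1.77% of all windows. How far shared OCT2 peaks account for them was not tested.

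**Figure D1:**
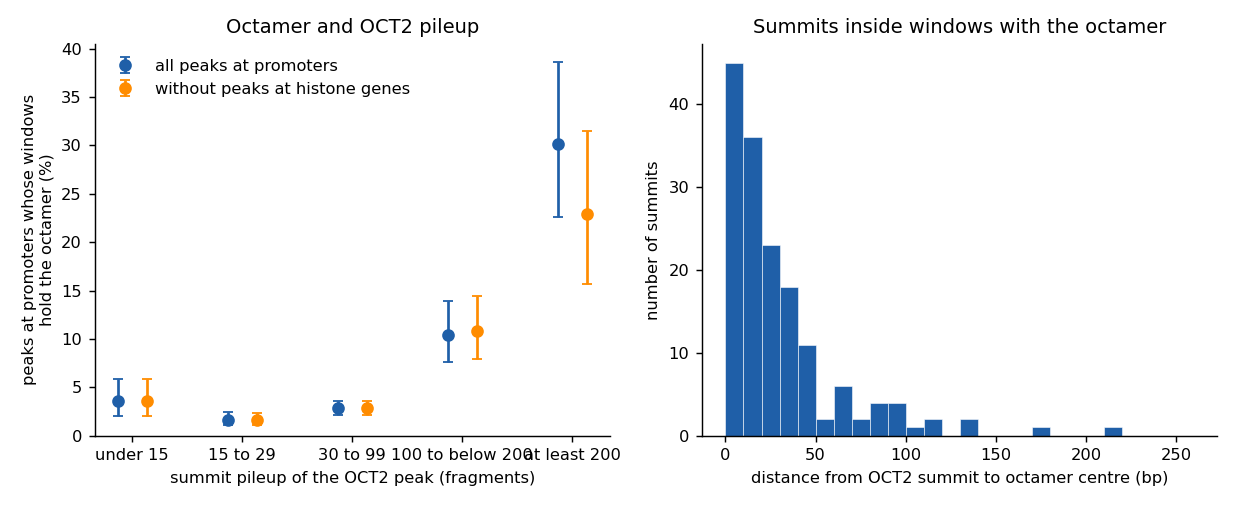
Left, share of OCT2 peaks at promoters whose windows hold the octamer (%), by summit pileup class (fragments), for all peaks and without peaks at histone genes, with exact 95% binomial intervals. Right, number of summits by distance to the octamer centre (bp); the share reached 30.1% at pileup of at least 200, and the median distance was 18 bp.

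Most OCT2 peaks were narrow and low. Width had quartiles of 197, 287 and 473 bp, and 3774 peaks (5.11%) were exactly as wide as the fragment length the caller estimated, 145 bp, the narrowest width in the list. Only 4620 peaks (6.26%) reached 1000 bp, 801 reached 2000 bp and 20 reached 5000 bp. The 739 peaks of the widest 1% made up 6.69% of the 30.5 Mb covered, and the widest 10% made up 31.9%. Summit pileup had quartiles of 14, 21 and 38 fragments, and 1359 peaks (1.84%) reached 200. The top 10% by pileup held 39.5% of the summed pileup. Fold enrichment over the control, as the authors' caller gave it, had quartiles of 4.37, 5.88 and 9.55.

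Pileup had a ceiling. The caller kept 1 tag per position and strand, so no base can be covered by more than 290 fragments, 2 times the fragment length, and the highest OCT2 pileup was 290. The highest values of the OCA-B, MED1, CREBBP and EP300 lists also equalled 2 times their own fragment lengths (296, 348, 328 and 304), and OCT1 reached 337 of 338. In the OCT2 list, 267 peaks lay within 10% of the ceiling, so pileup separates the strongest sites poorly. None of the 20 peaks of highest pileup was among the 20 of highest fold, which had pileups of 157 to 271 and control levels of 1.19 to 2.48. The control level is the input coverage, scaled to the ChIP depth, that the caller set each peak against.

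Across peaks, width and pileup moved together (Spearman rho 0.76 over 73829 peaks of 1 library, given as a description), as did pileup and the control level (0.59), while fold and the control level did not (0.04). Even so, only 226 of the 739 widest 1% were among the 738 of highest pileup (30.6% of each set). The median control level was 5.90 for the widest 1%, against 2.82 for all peaks. The part of the control level in width was not tested.

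**Figure D2:**
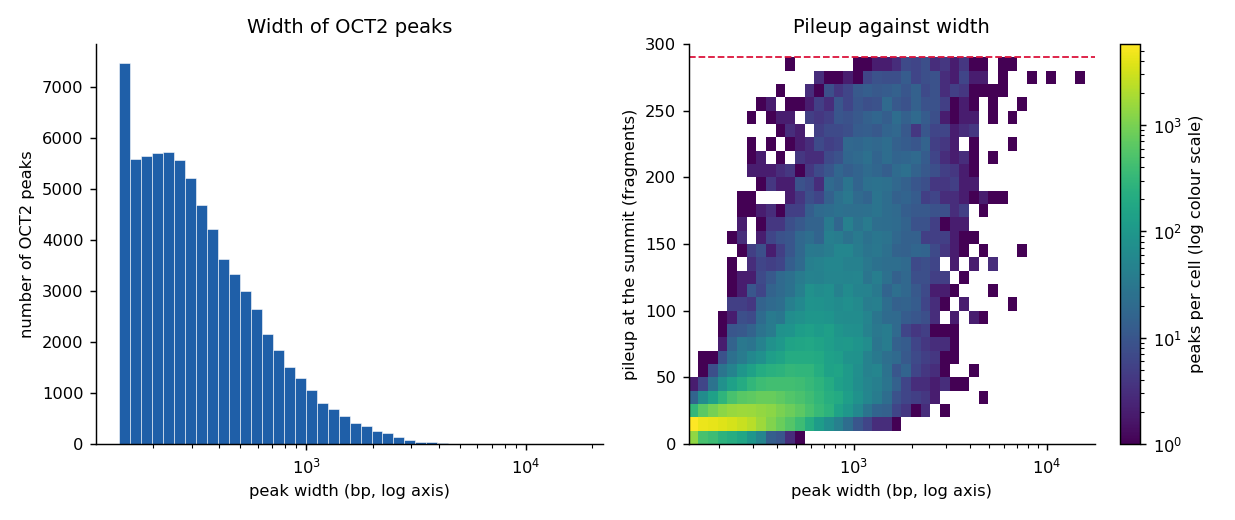
Left, number of OCT2 peaks by width (bp, log axis). Right, summit pileup (fragments) against width (bp, log axis), with colour for the number of peaks per cell on a log scale; the dashed line is the ceiling of 290 fragments, which the highest peaks reach.

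Wider OCT2 peaks met the other lists more often. Of the 3774 peaks of 145 bp, 17.4% overlapped an OCA-B peak by at least 1 bp, 4.85% OCT1, 16.3% MED1, 14.8% CREBBP and 41.6% EP300, and 49.4% overlapped none of the 5. Above 300 and up to 500 bp, OCA-B overlapped 68.5%, EP300 82.7%, CREBBP 59.9%, MED1 59.6% and OCT1 19.3%. Above 2000 bp, OCA-B and MED1 each overlapped 100% of the 800 peaks, CREBBP and EP300 99.9% each and OCT1 92.3%. In the widest 1%, 684 of 739 (92.6%) overlapped all 5 other lists, against 15.1% of all OCT2 peaks. A wide peak has more bases to be overlapped. When at least 50% of the OCT2 peak had to be covered by each list, the share of the widest 1% fell to 11.9%. The share over all OCT2 peaks under this stricter rule was not counted, so the 11.9% has no background. All 738 peaks of highest pileup overlapped all 5 lists by at least 1 bp.

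The widest OCT2 peak lay between BCL6, the germinal centre repressor gene, and LPP. It ran over chr3:187965753-187981095, 15343 bp, across the lncRNA gene LINC01991, with pileup 271, fold 24.7 and control level 10.0. Its summit lay 13996 bp from the left edge, so the highest stack stood near one end. The same stretch was 1 peak in the MED1 list (27498 bp wide) and in the EP300 list (18661 bp), but 7 peaks in OCA-B, 9 in OCT1 and 5 in CREBBP. The eighth widest peak, chr3:187940798-187947571, 6774 bp with pileup 221 and fold 26.3, belonged to the same cluster of 41 OCT2 peaks over 127.9 kb. That cluster was 27th by number of peaks but held 50780 bp under peaks and a summed pileup of 2782.

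**Figure D3:**
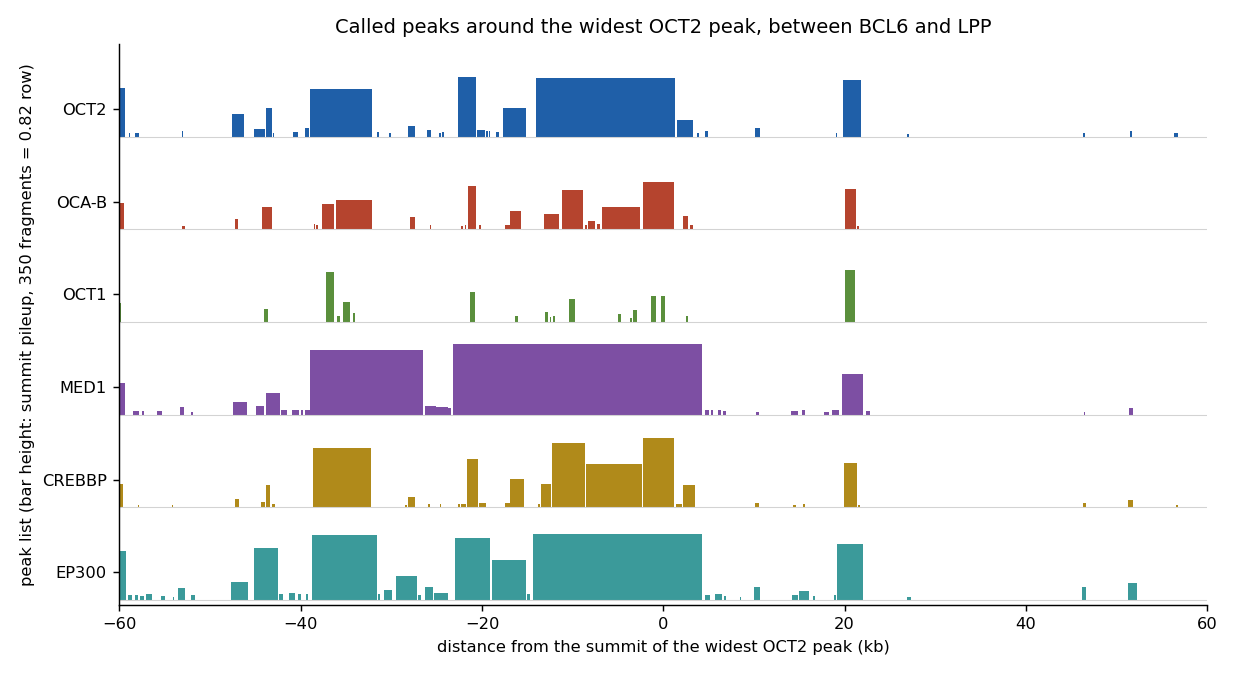
Called peaks of the 6 lists within 60 kb of the summit of the widest OCT2 peak, between BCL6 and LPP. Each block spans a peak (kb from that summit) and its height is the summit pileup on 1 common scale, not a coverage profile; OCT2 shows 1 block of 15343 bp where OCT1 shows 9 narrow ones.

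The second widest, chr6:87915486-87926469 (10984 bp, pileup 276, fold 41.1), overlapped no annotated gene, and the nearest protein-coding gene, SPACA1, was 120.4 kb away. Its cluster of 12 peaks also held 2 of the 20 peaks of highest pileup, with 289 and 285. At the immunoglobulin kappa locus a 7706 bp peak covered IGKC, the constant gene, and the J segments IGKJ1 to IGKJ5 (pileup 254, fold 24.4). These 3 peaks all stood above pileup 250.

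Some of the 20 widest had low pileup for their width. IRAG2 carried a 7378 bp peak with pileup 145 and fold 13.98. MALAT1, an abundant nuclear lncRNA gene, had 6875 bp with pileup 105 and fold 20.8, the lowest pileup of the 20. NEAT1, the lncRNA of paraspeckles, had 5211 bp with pileup 118 and fold 13.7. CDKN1B, which encodes the cell cycle inhibitor p27, had 5407 bp with pileup 133 and fold 30.9. CHD2, a chromatin remodeller gene, had 5239 bp with pileup 134 and fold 31.1. The folds at CDKN1B and CHD2 lay above the median of 25.5 for peaks over 2000 bp, and those at IRAG2, MALAT1 and NEAT1 below it.

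A further 10 of the 20 widest were at RNGTT, which encodes the mRNA capping enzyme, ETS1, a lymphoid transcription factor gene, TMEM154, NOL4, CADPS, SELPLG, which encodes the P-selectin ligand, GAB1, TCL6, near PAPOLG and near UTP3. Their widths ran from 5186 to 6837 bp and their pileups from 185 to 289. The remaining 1 of the 20 is not reported here. ETS1 had the highest control level of the 20, 14.8. In all, 13 of the 20 summits lay inside genes, 4 between genes and 3 within 1 kb of a gene end.

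The 20 peaks of highest pileup, 284 to 290, were 1347 to 6837 bp wide with folds of 19.97 to 50.2. Peaks tied at 284 were taken by −log10 q, which left out a tied peak near PROS1 of 447 bp with fold 1.66 and control level 171. First was a peak 391.6 kb from BRD1 (pileup 290, fold 19.97, control level 13.6), in a cluster of only 3 peaks. ANKS1B had the highest fold of the 20 (50.2, pileup 286, control level 4.72), followed by the antisense gene of DENND5B (48.5) and RNGTT (45.8). ERC2, CADPS, CEP128, ST6GAL1, EPN2, CHD7, ANKS1B, RNGTT and SCAMP5 overlapped such a peak. Another, in the lncRNA gene MIR3681HG, lay 203.9 kb from its nearest coding gene, LPIN1. PIM1, a kinase gene, had such a peak 13.7 kb away (286, fold 35.5), and TLR10, a Toll-like receptor gene of B cells, 9.03 kb away (285, fold 25.9). Only RNGTT and CADPS were also among the 20 widest.

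By place, 13518 summits (18.3%) lay no more than 1 kb from an end of an annotated coding or lncRNA gene, 40470 (54.8%) lay farther inside a gene and 19841 (26.9%) between genes. The widest 1% had 12.04% of summits at gene ends (interval 9.78 to 14.6) and the highest-pileup 1% had 13.7% (11.3 to 16.4). In the other lists the share at gene ends was highest for OCT1 (39.96%) and OCA-B (27.7%), then MED1 (22.9%), CREBBP (20.4%) and EP300 (18.6%). These lists differ in antibody, depth and length, so their shares were set side by side without a test.

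Measured from annotated protein-coding starts, 8820 OCT2 summits (11.9%) lay within 1 kb, 14595 (19.8%) at 1 to 10 kb, 32630 (44.2%) at 10 to 100 kb and 17784 (24.1%) farther away. The median distance was 29.04 kb. Starts were available for 15811 of the 19970 protein-coding genes, so these distances are upper limits and the share within 1 kb a lower limit. Pileup reached 200 in 1.07% of summits within 1 kb of a start, 1.44% at 1 to 10 kb, 2.08% at 10 to 100 kb and 2.11% beyond. Median width was 306 bp within 1 kb of a start and 283 to 289 bp in the other classes.

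Around starts the summits had 2 maxima. In the 15811 protein-coding genes whose strand was known, the highest 100 bp bin was centred 250 bp before the start, with 974 summits or 61.6 per 1000 genes, 11.3 times the level at 4 to 5 kb. The count was low 250 bp after the start (166 summits, 10.5 per 1000 genes) and higher again 750 bp after it (451 summits, 28.5 per 1000 genes). The highest bin also lay 250 bp before the start for EP300 (11.3 times its flank) and MED1 (13.1 times). It lay 150 bp before the start for OCA-B (17.4 times) and CREBBP (10.7 times). OCA-B likewise had a low count 250 bp after the start (219 summits) and a higher one 650 bp after it (513). OCT1 summits peaked 50 bp before the start, at 77.6 times their own flank. Around the 3′ ends, the OCT2 maximum was 1.77 times the flank. In 6414 bodies of at least 20 kb with a summit, 23.5% of 31793 summits fell in the first 10% of the body, and each later 10% held 7.22% to 10.8%.

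**Figure D4:**
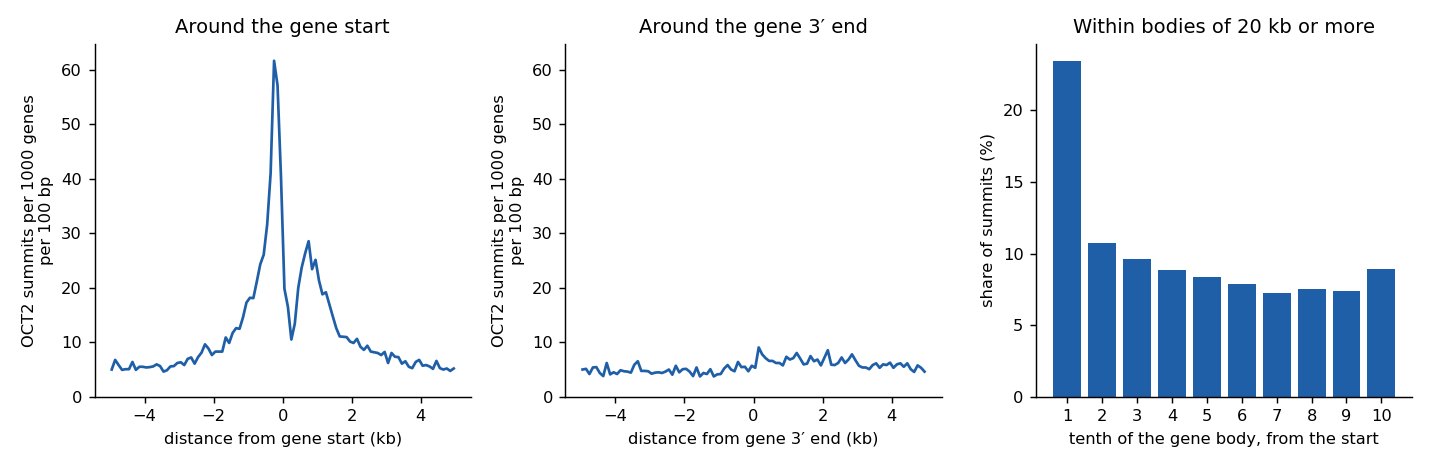
OCT2 summits per 1000 genes in 100 bp bins around the start (left) and the 3′ end (middle) of 15811 protein-coding genes, and the share of summits (%) in each 10% of the body from the start (right). The maximum lies 250 bp before the start, with a lower one 750 bp after it. On the same vertical scale the 3′ end profile is low, with a maximum of 9.04 per 1000 genes 150 bp after the end against a flank of 5.12.

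Among chromosomes, OCT2 peaks averaged 24.4 per Mb. Chromosome 19 was densest with 46.6 per Mb, followed by chromosome 17 with 38.9, and X was sparsest with 13.1, below chromosome 13 with 16.2. Density followed gene content (Spearman rho 0.85 over 23 chromosomes of 1 library, as a description). Per protein-coding gene the order changed, with the most on chromosome 18 (5.76) and the fewest on chromosome 19 (1.88). On chromosome 19, 32.5% of summits lay at gene ends, the background over all chromosomes being 18.3%. The X also had the lowest median pileup (16) and the lowest median control level (1.77). A control level at the genome-wide value of 1.19 was found in 32.6% of its peaks, against 5.91% of all peaks. In each of the other lists too, chromosome 19 was densest and X sparsest, with the lowest median control level on X. OCA-B had 54.9 and 8.81 peaks per Mb on these, OCT1 26.3 and 3.51, and EP300 56.4 and 13.3. The part of the control level in the X values was not tested.

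**Figure D5:**
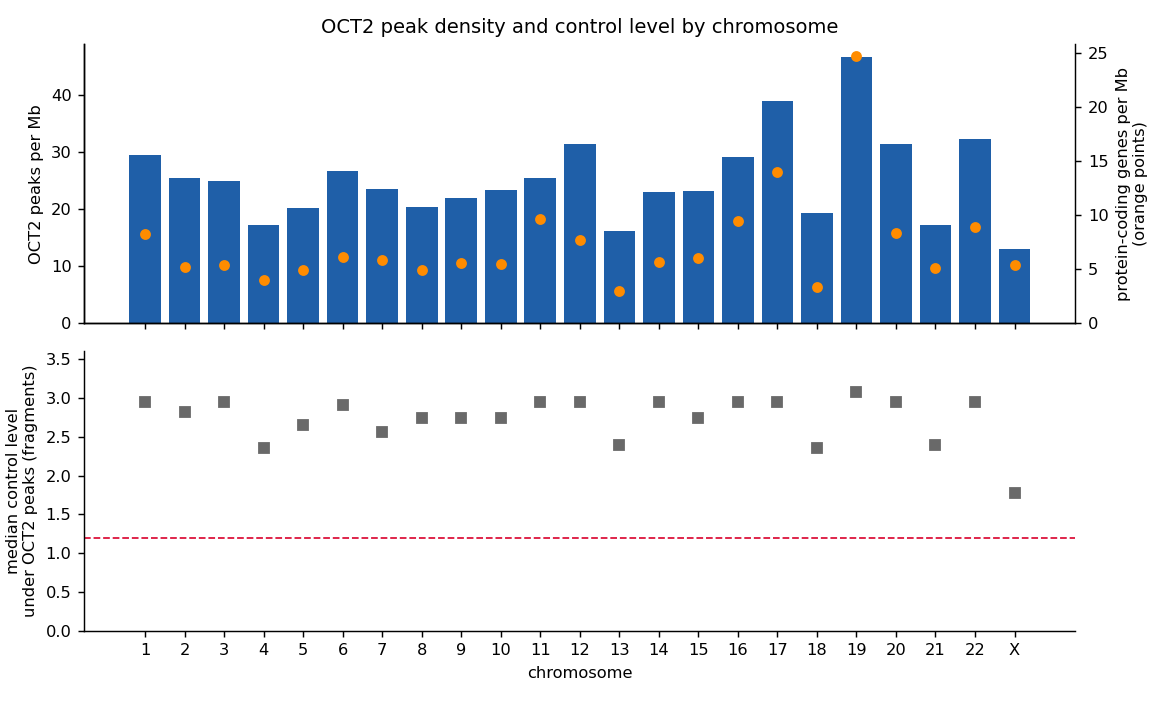
Top, OCT2 peaks per Mb (bars, left axis) and protein-coding genes per Mb (orange points, right axis) by chromosome. Bottom, median control level under OCT2 peaks (fragments), with the genome-wide value of 1.19 as a dashed line; chromosome 19 is densest at 46.6 per Mb, and X is lowest in both panels for OCT2 density and control level.

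Summits came in groups. The median step to the next summit was 5.97 kb against a mean of 40.04 kb, and 18.9% of steps were under 1 kb. Joining peaks within 500 bp of each other cut the list from 73829 to 59272. Whether such neighbours are separate sites or pieces of 1 broader region was not tested. When peaks whose edges lay within about 12 kb of each other were joined, 27767 clusters resulted, of which 14746 were single peaks, 1111 held at least 10 peaks and 242 at least 20. Clusters of at least 10 numbered 529 with edges within 5 kb and 606 with −log10 q over 5. Clusters of at least 10 peaks covered 47.0 Mb, 1.55% of the chromosomes. Peaks in clusters of at least 20, compared with lone peaks, were wider (median 350 bp against 239 bp) and more often overlapped by MED1 (73.0% against 24.4%) and EP300 (86.8% against 50.8%), while median fold was lower (5.45 against 5.94). The median control level was 3.52 in these clusters and 1.97 at lone peaks.

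The cluster with most peaks, 63 over 124.4 kb of chromosome 1, spanned E2F2, a cell cycle transcription factor gene, and ID3, an inhibitor of E proteins, and 59 of its peaks overlapped MED1. OSBPL10, an oxysterol-binding protein gene, followed with 62 peaks over 133.3 kb, of which 28 overlapped OCA-B. The lambda light chain genes IGLL5, IGLC1, IGLC2, IGLC3 and IGLC7 lay under 61 peaks over 121.4 kb. At ST6GAL1, a sialyltransferase gene, the cluster had 59 peaks over 165.0 kb and the highest summed pileup of all clusters, 3596. At BLK, a B cell Src kinase gene, and its neighbour FAM167A, the cluster had 57 peaks over 97.9 kb.

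A cluster running from RPIA towards the kappa locus had 54 peaks packed into 76.1 kb, 7.10 per 10 kb. Of that stretch, 41.4% was under a peak. Of the 54, 24 overlapped EP300, the lowest share among the 15 clusters with most peaks, although it was the most tightly packed of them. The cluster over SWAP70, a gene of B cell signalling, had 54 peaks and none with pileup of 200 or more. That at TNFAIP8 had 50, of which 18 overlapped OCA-B and 4 OCT1. PAX5, the B lineage factor gene, and ZCCHC7 shared 50 peaks. Clusters at KLHL6 and at the DUSP22 and IRF4 pair had 49 each, and those at PLCG2, RAPGEF1, ITPKB and SORL1 had 48 each. Of these 15 clusters, 11 were also among the first 15 by summed pileup.

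Over the genome in 1 Mb windows, the median was 17 summits, 333 of 3043 windows had none and the densest 10% held 33.0%. The window with most, 194, lay on chromosome 22 and held IGLL5. The next had 162 (ZCCHC7 and PAX5), 159 (XKR6, BLK and FAM167A) and 157 summits (ELF1 and FOXO1). Then 2 windows had 139 each, 1 on chromosome 6 with histone genes such as H2BC4 and 1 on chromosome 19 with SMARCA4. These windows were ranked after the values were seen.

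Within genes, 51.9% of 19970 protein-coding genes had at least 1 summit in the body and 4.81% had at least 10, with a median of 1. AUTS2 had the most, 109 over 1195 kb, and FOXP1, a forkhead factor gene, followed with 84 over 629.3 kb. ZCCHC7 had 78 over 238.0 kb, or 3.28 per 10 kb, and ST6GAL1 had 56 over 148.0 kb, or 3.78 per 10 kb, the densest of the first 15. RABGAP1L (72), OSBPL10 (68), SNX29 (66), CUX1 (63), AKAP13 (63), BACH2 (61), LPP (60), RERE (60), EBF1 (58) and PALM2AKAP2 (56) were also among the first 15. BACH2 and EBF1 encode B cell transcription factors, and their summed pileups were 1549 and 2440.

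Per 10 kb of body, the first 10 were taken among genes with bodies of at least 5 kb and at least 5 summits, so that shorter genes could not enter. RPL10, with 16.4 per 10 kb, and CXCR4, with 13.2, lay above them all but were too short. IMPDH2, a nucleotide synthesis gene, had 6 summits in 5.07 kb, and RAN, a nuclear transport gene, 6 in 5.61 kb. EIF4A2 and EEF1A1 encode translation factors and had 6 and 5. CLECL1 stood apart from these with 27 summits in 32.2 kb, 8.39 per 10 kb. ATF5, SPCS1, RPL36A, BTG1, and XBP1, the plasma cell factor gene, had 5 each. Summed pileup was low in several of them, with 66 at RPL36A and 93 at IMPDH2.

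The lists of genes by role were read against 40.9% of all protein-coding genes having any part of an OCT2 peak within 1 kb of either end. All 8 B cell markers did, with EBF1 (58 summits in the body), BLK (32), PAX5 (21) and CD22 (5) ahead. Of markers of other lineages, 2 of 8 T cell genes did (CD28 and CD3E), 2 of 8 myeloid, 2 of 8 erythroid and 0 of 8 neuron genes. None of the myeloid genes had a summit in the body, and CD14, CSF1R and MPO had no peak in or within 1 kb of the gene. A summit in the body was present in 8 of 8 B cell markers, 4 of 8 T cell, 3 of 8 erythroid and 7 of 8 neuron genes, against 51.9% of all genes, so the lists of other lineages were not free of OCT2 peaks. Neuron genes had up to 8 such summits (SYT1), with pileups of up to 147 at RBFOX3 and 112 at TUBB3, and no peak within 1 kb of an end.

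Germinal centre genes had a peak at an end in 20 of 23 cases, with a median of 7 summits in the body. BACH2 had 61, P2RY8 and FOXO1 40 each and KLHL6 27, and MEF2B, with 13, had the highest pileup of the list in or within 1 kb of the gene, 276. The 3 without a peak at an end were MEF2C, EZH2 and SUSD3, with 23, 9 and 6 summits in the body. B cell receptor signalling genes had one in 18 of 20 cases and a median of 10.5 summits in bodies with a median of 83.8 kb. PLCG2, the phospholipase of the receptor, had 55, BLK 32, SYK 27 and LYN 23, all with pileups of at least 222 in or near the gene. CD81 and VAV2 had no peak at an end.

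Plasma cell genes had a peak at an end in 11 of 15 cases and a median of 3 summits. CREB3L2 and EDEM1 had 18 each, IRF4 and JCHAIN 8 each, and PRDM1, the plasma cell repressor gene, 7. ELL2 and SSR4 had none. Genes of the POU2F and POU2AF families, OCT2 included, had a peak at an end in 4 of 6 cases. The body held 28 summits in POU2F1, 17 in POU2AF1, which encodes OCA-B, and 15 in POU2F2 itself. The strongest POU2F2 peak was chr19:42113955-42114998 (1044 bp, pileup 130, fold 14.1), below the 274 reached in POU2F1 and above the 94 reached inside POU2AF1. Among genes linked to octamer factors in earlier work, 7 of 10 had a peak at an end. BCL2 had 20 summits in the body and none at its ends, BTK had 12, SPIB 6 and MS4A1, which encodes CD20, 5. CD36 had none.

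Replication-dependent H2B genes had a peak at an end in 16 of 18 cases and a median highest pileup of 254 among those. Cytosolic ribosomal protein genes had one in 68 of 77 cases but with a median highest pileup of 37.5, and 1 of their 77 promoter windows held the octamer. RPL8, RPS15, RPS28 and RPS21 were among those with neither a peak at an end nor a summit. All 23 small nuclear RNA genes of the list had a peak within 1 kb, against 41.6% of 154 annotated ones. Their highest pileups ran from 125 at RNU4ATAC to 276 at RNU5A-1, with a median of 247 and 22 of 23 at 200 or more. These RNA genes and the histone genes are multicopy families, so how reads were divided among near-identical copies is uncertain, and several neighbours share 1 peak.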

How the data were processed

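ChIP-seq of 6 antibodies and 1 input was deposited by the authors as 1 peak table per antibody. The submitters' processing notes name CASAVA 1.8.2, Bowtie2 2.3.2.2, SAMtools 1.3.1, MACS2 2.1.1.20160309 and hg38. Per the file headers, each ChIP library was called separately against the same control, with a q threshold of 0.05, 1 tag kept per position and a fragment length of 145 bp for OCT2. Pileup is a coverage signal, as deposited by the authors, and is not scaled between libraries. Fold enrichment is the deposited ratio of pileup to control, each with 1 added. The −log10 q-value and −log10 p-value are those the authors deposited. Width and summit position are also as deposited by the authors.

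The control level was recovered as (pileup + 1) / fold − 1. Genes came from RefSeq (GRCh38.p14), which holds 19970 protein-coding genes on these chromosomes, and promoter windows and strands from the RefSeq promoter table. Gene ends were used in place of exons and introns, and motifs were searched only in promoter windows, since no genome sequence was used here. Summits decided the place, and the any-part rule was used for gene lists. Interval functions were tested on simulated data. Python 3.11.15, numpy 2.4.6, pandas 2.3.3, scipy 1.17.1 and matplotlib 3.10.9 were used. Intervals on shares are exact (Clopper-Pearson, 95%) and cover counting error over peaks, which are not replicates.

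The members and lists were chosen with earlier results of these data known. Named genes were those at the 20 widest and 20 highest-pileup peaks and the 15 clusters with most peaks, the 15 with most summits and 10 with most per 10 kb (among genes with at least 5 summits and bodies of at least 5 kb), and from each list the first 4 and those with none. Some others, named where a count or contrast rested on them, were chosen after their values were seen. Alternatives were a stricter −log10 q over 5, a fold of at least 5, joined peaks, other windows, other cluster gaps, other overlaps and ATGCNAAT for the octamer. Some named members are not reported here.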

Additional observations from a re-analysis of the deposited data

Results flagged for a closer look

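Outside the chromosomes used, the OCT2 table held 2174 peaks on alternate, unlocalized and unplaced sequences, with a median pileup of 16. They were 2.85% of the whole table, in which peaks on Y were counted but not described here. This is signal in data that no comparison used. Of these, 2003 lay on alternate contigs, 686 of them of chromosome 6 and 148 of chromosome 14.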

How the results depend on the processing

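No paired analysis was possible because each antibody had 1 library, and for the same reason no library could be left out. With −log10 q over 5, median width was 344 bp, median pileup 27, the share at gene ends 18.9%, median spacing 9.05 kb, clusters of at least 10 peaks 606, genes with a peak at an end 36.2%, median control level 2.95, and OCT2 minus OCT1 at gene ends −22.3 points, against −21.6. Requiring a fold of at least 5 left 47007 peaks with median pileup 30. Peaks joined within 500 bp had a median width of 313 bp. A window of 2.5 kb put 30.2% of summits at gene ends and gave 49.6% of genes a peak, and counting any part of a peak gave 20.6%. Edges within 5 kb gave 529 clusters. The share in all 5 other lists was 11.9% with 50% overlap, 80.4% for the widest 5% and 100% for the highest-pileup 1%. The octamer difference between windows with and without a peak was 2.13 points, and 3.78 points where the summit lay inside. The ratio of densest to sparsest chromosome per Mb was 3.57, and 3.91 with −log10 q over 5, with chromosome 19 densest and X sparsest in each. Per protein-coding gene the ratio of most to fewest was 3.06, but chromosome 18 was then highest and chromosome 19 lowest. Apart from this change of order no direction reversed, although the 50% overlap was not counted over all peaks. The weakest peaks, at pileups of 6 to 14, rest on few fragments. Alternatives on control level, on histone genes and on q for the control level, the highest pileup and the OCT1 difference were chosen after seeing the data.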

Other observations

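Long genes differed widely. Of 314 protein-coding genes with bodies of at least 500 kb, 30 had no OCT2 summit, and the median was 0.060 per 10 kb, whereas FOXP1 had 1.33 and SNX29 1.10. Those without any included ROBO2, a neuronal guidance receptor gene (1743 kb), DPP10 (1403 kb), KCNIP4, a potassium channel interactor gene (1220 kb), OPCML (1118 kb) and CNTN4, a neuronal adhesion gene (959.1 kb). These genes were named after their values were seen.

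High pileup did not always come with high fold. Of the 1359 peaks with pileup of at least 200, which had a median fold of 32.3, 6 had a fold under 5. The extreme was a 447 bp peak on chromosome 3, 402.2 kb from PROS1, with pileup 284, the 18th rank, but fold 1.66 and a control level of 171. A further 5 lay at the outer ends of chromosomes 18, X, 12, 10 and 5, with control levels of 90.9 to 116.9. Their nearest coding genes, PARD6G, IL9R, ANHX, TUBB8 and LOC107987432, were 15.4 to 38.3 kb away.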
